A study of Oryza sativa with 4 samples.

Results

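A set of 53 rice loci was abundant in the MIM396 panicle library and nearly absent from the library labelled wild type. The loci were chosen from the measured values themselves: each had a deposited scaled count of at least 800 in the MIM396 library and of at most 3 in the library labelled wild type. They were 53 of the 55986 loci in the expression table, and 1.56% of the 3407 loci that reached a scaled count of 800 in the MIM396 library. Their high level in one library and low level in the other is therefore the choice and not a result, and it was given no test.

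The study examined genes regulated by OsGRF6, and it held 4 libraries, 1 in each of 4 groups. Both RNA libraries were made from rice inflorescences, or panicles, whose secondary branches were developing. One was from plants with the p35S:MIM396 transgene, in which the constitutive 35S promoter drives a decoy RNA for the microRNA miR396 broadly rather than in panicle cells alone, and the other was from wild-type Yutai B plants without the transgene. The other 2 libraries, an anti-GFP ChIP and its input, were made from p35S:GRF6-GFP callus, a culture of undifferentiated cells, so binding and expression were measured in different material. Ages, the number of plants per library and the number of transgenic lines do not appear in the labels. Only panicle libraries have expression values, and since each group is 1 library, values carry no replicate error and the genotypes were compared without a test.

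In plants, miR396 directs cleavage of transcripts of growth-regulating factors (GRFs), which are DNA-binding proteins that promote cell proliferation and work with coactivators called GRF-interacting factors (GIFs). A target mimic binds the microRNA without being cleaved and so lowers its activity. Class I KNOX homeobox proteins keep cells of the shoot and inflorescence meristem undifferentiated, YABBY proteins act in lateral organs and in spikelet development of rice, and GH3 enzymes join amino acids to hormones such as auxin.

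Neither the expression table nor the reference gene table pairs any of the 53 loci with a name, and 0 of them are in the peak table that carries descriptions. Families are given below from general knowledge of rice locus numbers, for 5 families whose loci are well known, and 43 of the 53 loci are described by number only. Which numbered gene of its family a locus is, and what the 43 others encode, cannot be read from the files.

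The recovered depth was 16337526 reads in the library labelled wild type and 13125593 in MIM396, over 24720 and 24527 loci with reads. Marker loci, also listed from general knowledge, were checked against the labelled tissue. FPKM, as deposited, are fragments scaled by transcript length and by the authors' factor for each library. Of 12 panicle and inflorescence meristem loci, 11 had at least 1 FPKM in MIM396 and 4 in the library labelled wild type. In that library, 4 of the 12 had 0 reads. Of these 4, 2 are loci of the set, LOC_Os03g51690 and LOC_Os04g51000, whose levels in both libraries are the choice. The 12 loci summed to 896.4 FPKM in MIM396 and 143.4 in the library labelled wild type. LOC_Os08g39890 gave 631.0 of the MIM396 sum, and the 2 loci of the set gave 134.2 and 59.1. In the library labelled wild type LOC_Os01g40630 gave 130.5, and it had 8.47 FPKM in MIM396. Of 14 floral organ MADS loci, 11 and 5 reached 1 FPKM, with sums of 236.6 and 130.3 FPKM, and 8 had 0 reads in the library labelled wild type. One MADS locus, LOC_Os03g54160, was the highest of the list in both libraries, at 94.0 FPKM in MIM396 and 110.8 in the library labelled wild type, and another, LOC_Os01g10504, was lower in MIM396, at 0.214 against 4.62 FPKM. Over all loci, 55.8% had 0 reads in the library labelled wild type, and of the 24527 loci with reads in MIM396, as all 12 panicle and all 14 MADS loci had, 10.3% did. All 6 leaf photosynthesis loci were between 903.7 and 17544 FPKM in the library labelled wild type and between 0.134 and 11.99 FPKM in MIM396, with sums of 53646 and 19.9 FPKM. Of 15 anther and tapetum loci, 3 reached 1 FPKM in MIM396 and 2 in the library labelled wild type, with sums of 42.4 and 4.28 FPKM. Most of the MIM396 sum came from LOC_Os03g08790 at 24.2 FPKM and LOC_Os10g33250 at 14.4 FPKM. No other locus of the 15 was at least 2-fold higher, and 5 had 0 reads in MIM396. Of 4 endosperm storage loci, 2 and 1 reached 1 FPKM, with sums of 3.37 and 6.18 FPKM. The panicle library labelled wild type thus held leaf loci at a high level, and fewer listed panicle loci reached 1 FPKM in it than in MIM396. These markers move with the difference that defines the 53 loci, and their part in it was not tested. In bulk tissue, fewer cells of a type and less RNA per cell cannot be told apart.

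**Figure D1:**
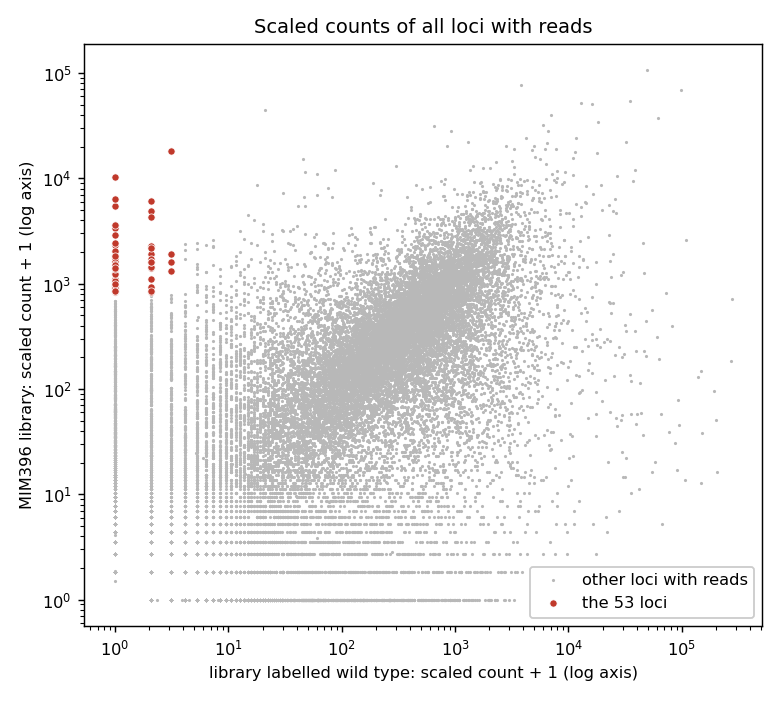
Scaled count + 1 of each locus with reads in the library labelled wild type (x axis, log) and in the MIM396 library (y axis, log); grey points are other loci and red points the 53 loci. The red points stand in 3 columns at the left, which are 0, 1 and 2 reads in the library labelled wild type.

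The limits on the scaled counts fall between whole reads. The authors' values were whole multiples of 1.057 in the library labelled wild type, so a count of at most 3 means at most 2 reads: 33 of the 53 loci had 0 reads there, 16 had 1 read and 4 had 2 reads. Together they held 24 reads in that library and 153496 reads in MIM396, 1.17% of all MIM396 reads. Just outside the limit, 4 loci had 3 reads, or 3.17 scaled counts, in the library labelled wild type: LOC_Os11g07960, LOC_Os05g43690, LOC_Os08g32500 and LOC_Os03g21730, with MIM396 levels from 38.7 to 81.8 FPKM. On the other side, the loci nearest under a MIM396 count of 800 were LOC_Os03g02460 at 771.6, LOC_Os08g39330 at 770.7 and LOC_Os01g72700 at 727.7. The loci nearest above it were LOC_Os04g45330 at 835.7, LOC_Os01g12640 at 838.3, LOC_Os07g03770 at 845.9, LOC_Os08g05290 at 847.5 and LOC_Os05g51740 at 849.2. The set therefore has no natural edge at either limit.

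Within the set, MIM396 levels ran from 14.7 to 1138 FPKM, with a median of 72.8 and quartiles of 44.2 and 147.4. In the 3407 loci with a MIM396 count of at least 800 the median was 46.5 FPKM, with quartiles of 29.9 and 87.5. Of the 53 loci, 22 had at least 100 FPKM, 12 had 50 to 100 and 19 had less than 50. One locus was among the 50 with the highest FPKM in the MIM396 library, 4 were among the first 100 and 16 among the first 500. In the library labelled wild type, the 20 loci with any read had 0.0183 to 0.319 FPKM.

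**Figure D2:**
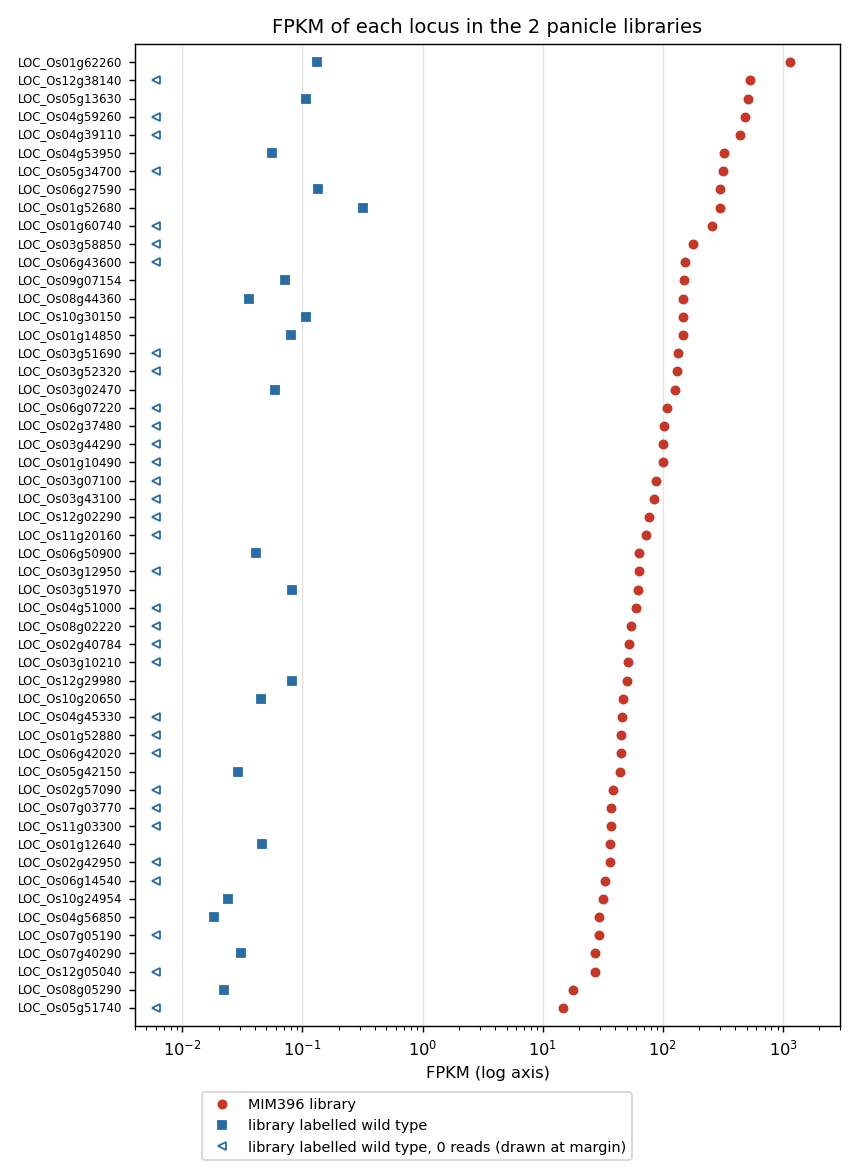
FPKM of each of the 53 loci (log axis), ordered by the MIM396 level; red circles are the MIM396 library, blue squares the library labelled wild type, and open triangles at the margin mark loci with 0 reads there. The MIM396 values span 14.7 to 1138 FPKM, and no wild-type value is above 0.319 FPKM.

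The most abundant was LOC_Os01g62260 (chromosome 1, 36029784 to 36030969), which had 1138 FPKM from 21347 reads in MIM396 and 0.132 FPKM from 2 reads in the library labelled wild type. It ranked 27th of all loci in MIM396. Its ratio of scaled counts was 8523, with a 95% interval (exact, covering counting error only, as for all intervals here) of 2359 to 70380. It had the most MIM396 reads in the set, and the 5 loci with the most reads held 35.7% of the set's MIM396 reads.

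The next 4 loci by level lay between 437.4 and 532.8 FPKM. LOC_Os12g38140 (chromosome 12, 23420041 to 23420870) had 532.8 FPKM from 6456 reads, and 0 reads in the library labelled wild type. LOC_Os05g13630 (chromosome 5, 7558072 to 7559206) had 506.4 FPKM from 5843 reads, against 0.107 FPKM from 1 read, a ratio of 4666 (837.1 to 184314). LOC_Os04g59260 (chromosome 4, 35245106 to 35246738) had 477.7 FPKM from 12281 reads, the second highest number of reads in the set, against 0 reads. With 3 reads as the limit that a count of 0 allows, its scaled count was at least 3269-fold higher in MIM396, the largest such bound among the 33 loci at 0. LOC_Os04g39110 (chromosome 4, 23242282 to 23243202) had 437.4 FPKM from 4310 reads, against 0 reads.

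A further 7 loci complete the 12 with the highest MIM396 level. LOC_Os04g53950 (chromosome 4, 32145678 to 32147540) had 321.5 FPKM and LOC_Os05g34700 (chromosome 5, 20586240 to 20590951) 314.6 FPKM, from 7151 and 7487 reads, against 1 and 0 reads in the library labelled wild type. LOC_Os06g27590 (chromosome 6, 15611974 to 15612817) had 298.1 FPKM and LOC_Os01g52680 (chromosome 1, 30278491 to 30280577) 297.9 FPKM. LOC_Os01g52680 had the highest wild-type level of the set, 0.319 FPKM from 2 reads. LOC_Os01g60740 (chromosome 1, 35129857 to 35130917), LOC_Os03g58850 (chromosome 3, 33512912 to 33513726) and LOC_Os06g43600 (chromosome 6, 26227103 to 26228760) had 257.5, 176.6 and 152.5 FPKM, and each had 0 reads in the library labelled wild type. At the low end, LOC_Os05g51740 had 14.7 FPKM and LOC_Os08g05290 17.8 FPKM, from 1006 and 1004 reads.

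The size of the difference is bounded by depth for most of the set. For the 33 loci at 0, the lower bound on the ratio ran from 264 to 3269, with a median of 479. For the 20 loci with 1 or 2 reads, the ratio ran from 621.6 to 8523 with a median of 1525, and each such ratio rests on at most 2 reads in the denominator. On the log2 scale of (FPKM + 1), each of the 53 loci was at least 2-fold higher in MIM396, which the choice of loci fixes. The table had 19456 loci whose mean reached 1 FPKM, and 23.1% of these were 2-fold or more higher and 27.3% were 2-fold or more lower. The opposite set, with a scaled count of at least 800 in the library labelled wild type and at most 3 in MIM396, held 126 loci, 3.18% of the 3958 loci at that level.

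Of the 53 loci, 9 belong to the 5 families, and 2 are on the panicle and inflorescence meristem list, 1 of them also a KNOX locus. The families were looked up because they have loci in the set, so each count below is a description, and the counts of the other family loci stand against the 23.1% of all loci at least 2-fold higher. Beside these counts, 7 of the 12 panicle loci were at least 2-fold higher in MIM396, 2 of them being in the set. Another 1 was at least 2-fold lower, as were all 6 leaf loci. The part of these marker loci in the family values was not tested.

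Among the GRFs, the direct targets of miR396 in plants, 2 of 12 listed loci belonged to the set. LOC_Os03g51970 (chromosome 3, 29823448 to 29825818) had 62.0 FPKM from 1887 reads in MIM396 and 0.0818 FPKM from 2 reads in the library labelled wild type, a ratio of 753.4 (208.3 to 6225). LOC_Os12g29980 (chromosome 12, 17915627 to 17919555) had 49.9 FPKM from 1557 reads and 0.0815 FPKM from 2 reads, a ratio of 621.6 (171.8 to 5138). The 2 loci thus had an equal number of reads in the library labelled wild type. Of the 10 other GRF loci, 9 were at least 2-fold higher in MIM396, none was lower and 1 was neither.

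The other GRF loci differed in both libraries. LOC_Os06g02560 had 2.58 FPKM in the library labelled wild type and 56.2 in MIM396, and LOC_Os04g51190 had 2.44 and 46.0 FPKM. LOC_Os11g35030 and LOC_Os03g47140 had 1.05 and 0.967 FPKM in the library labelled wild type and 48.4 and 55.0 FPKM in MIM396. LOC_Os02g45570 had 0 reads in the library labelled wild type and 37.4 FPKM in MIM396, from 596 reads, which left it under the limit of 800. The lowest MIM396 levels were 3.58, 7.39 and 9.11 FPKM, at LOC_Os04g48510, LOC_Os02g53690 and LOC_Os06g10310, which had 0, 9 and 0 reads in the library labelled wild type. LOC_Os07g28430, the locus that was neither, had 24.3 FPKM from 511 reads in the library labelled wild type and 33.0 FPKM from 862 reads in MIM396. In MIM396 the 12 loci spanned 3.58 to 62.0 FPKM with a median of 46.1, and in the library labelled wild type 0 to 24.3 FPKM with a median of 0.407.

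Of the 3 GIF coactivator loci, LOC_Os03g52320 (chromosome 3, 30045078 to 30048795) belonged to the set. It had 130.8 FPKM from 2863 reads in MIM396 and 0 reads in the library labelled wild type, at least 762-fold higher in scaled counts. The other GIF loci had many reads in both libraries: LOC_Os12g31350 had 12.9 FPKM in the library labelled wild type and 64.4 in MIM396, and LOC_Os11g40100 had 22.2 and 37.9 FPKM. The GIF locus of the set was the highest of the 3 in MIM396, where the choice also required a high count. That it was the lowest in the library labelled wild type follows from the choice of loci.

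Of 6 listed class I KNOX loci, 2 belonged to the set. Of the 5 with reads in MIM396, 4 had 0 reads in the library labelled wild type. Of these 4, 2 are the loci of the set, whose low count there is the choice and not a result. Among all loci with reads in MIM396, 10.3% had 0 reads there. LOC_Os03g51690 (chromosome 3, 29596276 to 29606861), which is also on the panicle and inflorescence meristem list, had 134.2 FPKM from 3988 reads in MIM396. LOC_Os07g03770 (chromosome 7, 1566063 to 1572187) had 37.1 FPKM from 1002 reads. LOC_Os01g19694 and LOC_Os05g03884 had the same pattern at a lower level, with 17.0 and 14.3 FPKM from 456 and 473 reads in MIM396 and 0 reads in the library labelled wild type. LOC_Os03g51710 had 0.834 FPKM from 25 reads and 4.28 FPKM from 160 reads, and LOC_Os03g56110 had no reads in either library. The second member on the panicle list, LOC_Os04g51000 (chromosome 4, 30182588 to 30185852), had 59.1 FPKM from 1448 reads in MIM396 and 0 reads in the library labelled wild type.

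Of 8 YABBY loci, 2 belonged to the set, both at 0 reads in the library labelled wild type. LOC_Os04g45330 (chromosome 4, 26797649 to 26800253) had 45.5 FPKM from 990 reads in MIM396, and LOC_Os02g42950 (chromosome 2, 25839310 to 25842729) had 36.4 FPKM from 1130 reads. The 6 other YABBY loci were not alike: 2 were at least 2-fold higher, 3 were neither and 1 lay below 1 FPKM. LOC_Os03g44710 had 16.9 FPKM in the library labelled wild type and 18.1 in MIM396, and LOC_Os12g42610 had 4.32 and 4.39 FPKM. LOC_Os10g36420 had 0 reads and 8.85 FPKM, and LOC_Os03g11600 had 0.635 and 4.86 FPKM.

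Of 7 listed GH3 loci, 2 belonged to the set. LOC_Os05g42150 (chromosome 5, 24643515 to 24646086) had 44.2 FPKM from 1897 reads in MIM396 and 0.0291 FPKM from 1 read, a ratio of 1515 (271.5 to 59861). LOC_Os07g40290 (chromosome 7, 24149648 to 24152079) had 27.4 FPKM from 1103 reads and 0.0310 FPKM from 1 read, a ratio of 880.7 (157.7 to 34819). Of the 5 others, 2 were at least 2-fold higher, 2 were neither and 1 had no reads. LOC_Os05g50890 had 21.8 FPKM in the library labelled wild type and 12.8 in MIM396, and LOC_Os01g55940 had 2.72 and 0.906 FPKM, both in the opposite order. LOC_Os06g30440 had 4.01 and 21.9 FPKM.

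**Figure D3:**
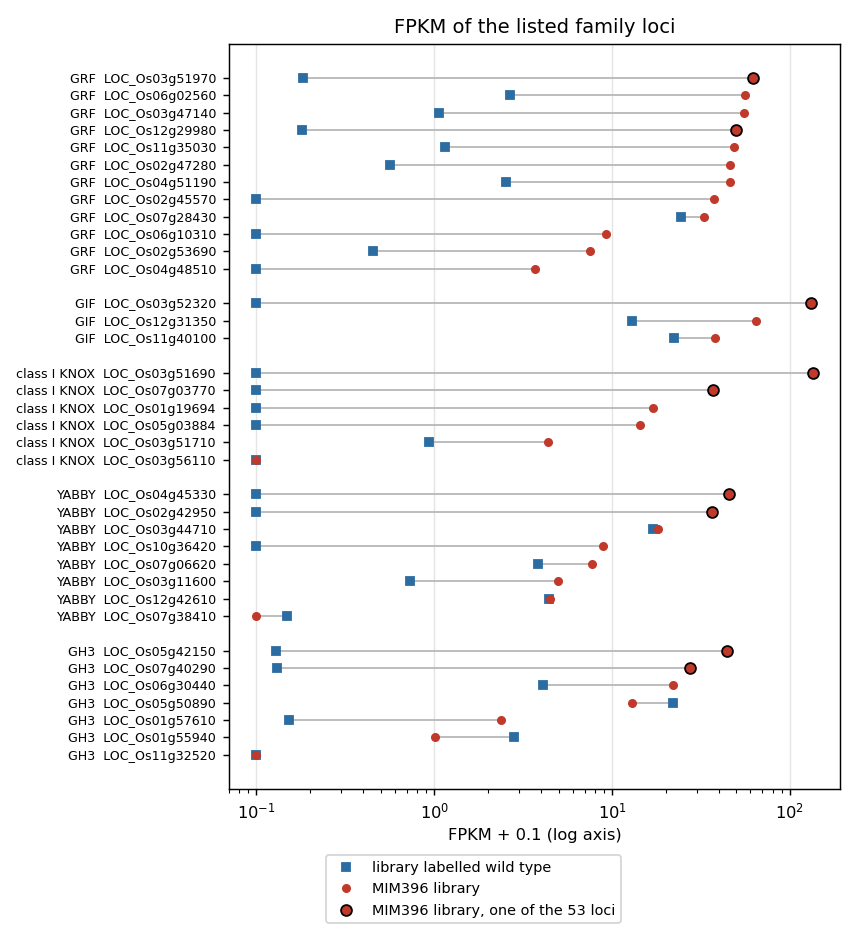
FPKM + 0.1 (log axis) of every listed locus of the 5 families in the library labelled wild type (blue squares) and in the MIM396 library (red circles), joined by a line; black-edged circles belong to the 53 loci. The GRF loci lie between 3.58 and 62.0 FPKM in MIM396, and the YABBY and GH3 lists hold loci at a similar level in both libraries.

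The 53 loci lay on all 12 chromosomes. Chromosome 3 held the most, 10 loci or 18.9% of the set, against 9.95% of all loci and 15.9% of the loci with a MIM396 count of at least 800. Chromosome 1 held 7 loci (13.2%, against 13.8% of the abundant loci), chromosomes 4 and 6 held 6 each (11.3%, against 8.01 and 7.63%), and chromosome 9 held 1. At these limits, no locus of the set was next to another and none had another within 100 kb. This count depended on the limits: with a MIM396 count of at least 400, 16 of 121 loci had another within 100 kb, and LOC_Os03g02460, 164 bp from a locus of the set, missed the limit of 800 at 771.6. The nearest pair, LOC_Os01g52680 and LOC_Os01g52880 (chromosome 1, 30407035 to 30408554), was 126.5 kb apart with 18 loci between. The median distance between successive loci of the set on a chromosome was 2.81 Mb.

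One stretch of chromosome 3, named after the positions were seen, held 3 of the family loci in order. Whether this is more than expected was not tested. The KNOX locus LOC_Os03g51690 was followed after 216.6 kb and 23 intervening loci by the GRF locus LOC_Os03g51970, and this after 219.3 kb and 31 loci by the GIF locus LOC_Os03g52320. The loci directly next to them did not share their pattern. LOC_Os03g51680, 476 bp before the KNOX locus, had 4.12 FPKM in the library labelled wild type and 5.77 in MIM396. The listed KNOX locus LOC_Os03g51710, 2 positions and 17346 bp after it, was at least 2-fold higher in MIM396, at 4.28 against 0.834 FPKM. LOC_Os03g51710 shares its interval with LOC_Os03g51700, so its reads are uncertain. LOC_Os03g52310, next to the GIF locus, had 32.2 and 31.0 FPKM. LOC_Os03g51960, before the GRF locus, had the opposite order, with 67.5 FPKM in the library labelled wild type and 0.315 in MIM396.

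Across the set, 212 other loci lay within 2 positions of one of the 53. Of these, 82 had no reads in either library and 103 had a mean of at least 1 FPKM. Of the 103, 31 were at least 2-fold higher in MIM396, or 30.1% (21.5 to 39.9%, Clopper-Pearson), 25 were at least 2-fold lower and the rest were neither, with a median log2 ratio of 0.28. The interval holds the 23.1% seen over all loci past the same filter. Without the filter on FPKM, 32 of the 212 loci were higher, or 15.1% (10.6 to 20.6%), and this interval lies above the 8.65% of all loci, so the reading depends on the filter. Neighbouring loci are not independent of each other, and these intervals are no test. For 13 of the 53 loci, at least 1 of the adjacent loci was at least 2-fold lower in MIM396. In the other direction, 10 of 27 loci directly before and 9 of 28 directly after, past the filter, were at least 2-fold higher. Together that was 34.5%. Of all loci past the filter, 23.1% were higher and 27.3% lower.

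**Figure D4:**
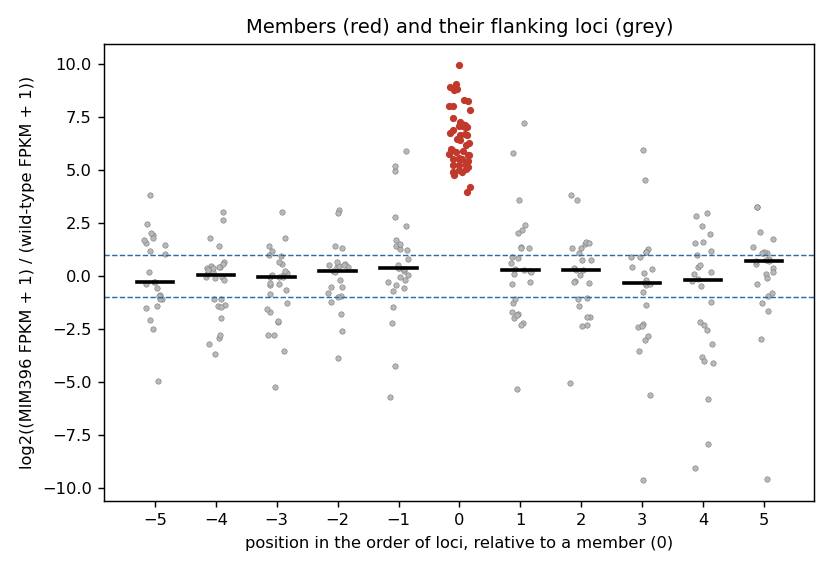
log2((MIM396 FPKM + 1) / (wild-type FPKM + 1)) of the 53 loci (red, position 0) and of loci up to 5 positions before and after them in chromosome order (grey, loci whose mean reached 1 FPKM); black bars are medians and dashed lines mark a 2-fold difference. The flanking medians lie between -0.34 and 0.73, within the dashed lines.

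A few adjacent loci had a like pattern, so that pairs of neighbours were abundant in MIM396. Of the 212 loci within 2 positions, 3 had a MIM396 count of at least 100 and a wild-type count of at most 3. The share of all loci within these limits was not counted, so whether 3 is many or few cannot be said. LOC_Os03g02460 (chromosome 3, 884558 to 887005) lay 164 bp before LOC_Os03g02470 (887170 to 889518), and the pair had 32.7 and 125.0 FPKM in MIM396, against 2 reads and 1 read. LOC_Os12g02300 (chromosome 12, 727799 to 728701) lay 3497 bp after LOC_Os12g02290 (723132 to 724301), and the pair had 54.7 and 76.2 FPKM in MIM396 and 0 reads each in the library labelled wild type. The loci that follow in that row, chosen after their values were seen, had the opposite order. LOC_Os12g02310 had 33.5 FPKM from 485 reads in the library labelled wild type and 0.0558 FPKM from 1 read in MIM396. LOC_Os12g02320, LOC_Os12g02330 and LOC_Os12g02340 had 782.4, 535.9 and 855.0 FPKM in the library labelled wild type. In MIM396 they had 0, 0 and 0.148 FPKM. LOC_Os01g52690 (chromosome 1, 30293942 to 30296578) followed LOC_Os01g52680 at a distance of 13364 bp and had 11.3 FPKM in MIM396, against 1 read.

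Another 3 adjacent loci, named after their values were seen, were abundant in MIM396 with somewhat more wild-type reads. LOC_Os12g38150, 6807 bp after LOC_Os12g38140, had 686.8 FPKM in MIM396, above its neighbour's 532.8, and 3.64 FPKM from 56 reads in the library labelled wild type. LOC_Os05g13620, 4175 bp before LOC_Os05g13630, had 132.7 and 1.21 FPKM. LOC_Os09g07150, 2144 bp before LOC_Os09g07154 (149.4 FPKM in MIM396), had 45.4 FPKM in MIM396 and 3 reads in the library labelled wild type. Whether such neighbours are copies of one gene cannot be read from the files, and reads shared between near-identical copies would be uncertain.

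The loci of the set were short in the table's intervals. Their median span was 2371 bp, with a range of 811 to 18673 bp, against 4672 bp for the 3407 loci with a MIM396 count of at least 800 and 2440.5 bp for all loci. Only 3 were longer than 10 kb. The 2 longest share their interval with another locus, so their reads are uncertain. LOC_Os06g50900 (chromosome 6, 30797111 to 30815783) had 63.7 FPKM and shares its interval with LOC_Os06g50910, which had 3.91 FPKM in MIM396 and 0.963 in the library labelled wild type. LOC_Os06g42020 (chromosome 6, 25231213 to 25242965) had 44.5 FPKM and shares its interval with LOC_Os06g42030, which had 10.4 and 5.21 FPKM.

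None of the 53 loci was placed at an OsGRF6-GFP peak of callus in the authors' table, which allows a share of up to 5.66%. Of all loci with a MIM396 count of at least 800, 1.47% were in that table, a share that lies under this limit, so no difference was detectable with 53 loci. The nearest listed peak was 15.1 kb from LOC_Os01g62260, and the median distance to a listed peak was 920.5 kb.

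The authors' deposited FDR, an adjusted p-value from an unnamed test, divided the set by whether the wild-type count was exactly 0. In the authors' deposited table, 19 of the 20 loci with 1 or 2 wild-type reads had an FDR under 0.05, from 2.67e-08 for LOC_Os05g13630 to 0.000479 for LOC_Os01g12640. The other one was LOC_Os06g50900, the locus with a shared interval, at 0.399. In the same authors' deposited table, none of the 33 loci with 0 wild-type reads had an FDR under 0.05, and their values ran from 0.0763 to 0.25. MIM396 levels of the 2 groups overlapped, with medians of 94.4 FPKM for the 20 and 72.8 FPKM for the 33.

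The same split ran through the whole of the authors' deposited table. Of 2535 loci with 0 reads in the library labelled wild type and reads in MIM396, 0 had an FDR under 0.05, and of 2728 loci with the reverse, also 0. The lowest FDR of any locus with 0 wild-type reads was 0.0754. By comparison, 1.95% of all loci, and 7.72% of the loci with a MIM396 count of at least 800, were higher in MIM396 with an FDR under 0.05. At that MIM396 count, every locus with 3 to 10 wild-type reads, outside the set, also had an FDR under 0.05. A low FDR at few wild-type reads was thus not particular to the set. Among the 33, the authors' deposited FDR was 0.0763 for LOC_Os04g45330, which had 990 reads in MIM396, and 0.171 for LOC_Os04g59260, which had 12281 reads. A list of loci taken by that FDR therefore leaves out both KNOX loci, both YABBY loci and the GIF locus of the set (0.178), and keeps both GRF loci (9.28e-07 and 0.000381) and both GH3 loci (3.97e-07 and 2.1e-06).

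**Figure D5:**
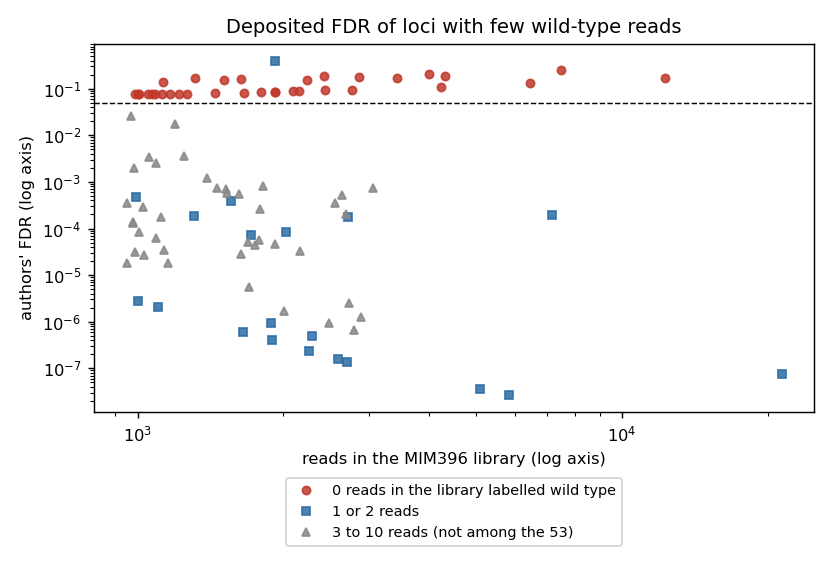
The authors' deposited FDR (y axis, log) against reads in MIM396 (x axis, log) of loci with a MIM396 scaled count of at least 800 and at most 10 reads in the library labelled wild type; the dashed line marks 0.05. All 33 loci with 0 wild-type reads lie above the line, and of the 20 with 1 or 2 reads 19 lie below it.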

How the data were processed

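Panicle RNA was sequenced from TruSeq libraries, per the labels' protocols; FastQC and Bowtie are named in the submitters' processing notes without versions. No source used here gives the counter, build or annotation release, so coordinates are as deposited. The deposited count signal holds reads per locus that the authors scaled by a constant for each library; reads were recovered by dividing by the commonest positive value (1.057 and 0.844) and rounding, and 97.8% and 99.0% of positive values came within 0.01 of a whole read. FPKM and the FDR (an adjusted p-value) were used as deposited by the authors. Positions in the deposited peak table carry no score here. With 1 library per group, no count test was run. Ratios of scaled counts have 95% exact conditional Clopper-Pearson intervals, which cover counting error only, as do floors of 3 reads. log2 ratios used FPKM + 1 and a mean of at least 1 FPKM, and 2-fold is a size limit. Distances are edge to edge. The selection, interval and neighbour steps were tested on simulated data.

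The loci, marker lists and family lists were chosen with earlier results of these data known; the family lists were added after the values were seen. Loci named are the 12 with the highest MIM396 FPKM, the 5 with the highest MIM396 count, loci with a family, a near neighbour of like pattern, and those nearest the limits. Alternatives were other limits, scalings, distances and filters. Analyses used Python 3.11.15, pandas 2.3.3, NumPy 2.4.6, SciPy 1.17.1 and matplotlib 3.10.9. No sequence is shown, since no sequence table was used here.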

Additional observations from a re-analysis of the deposited data

How the results depend on the processing

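The count of 53 loci was 65 with the limits on recovered reads, 77 with equal totals, 66 with equal totals after leaving out the 50 most abundant loci of each library (52 of them shared with the 53) and 51 without shared intervals. It was 121 with a MIM396 count of at least 400, 28 at 1600, 33 with a wild-type count of 0 and 88 with at most 10 because looser or stricter limits admit more or fewer loci, which also moves the values below. The median MIM396 level of 72.8 FPKM was 59.1 with recovered reads, 34.9 at 400, 146.8 at 1600, 58.4 with at most 10 wild-type counts, 46.5 with equal totals, 53.03 with equal totals without the 50 loci and 76.2 without shared intervals. The number of loci with another of the set within 100 kb, 0 at the main limits, was 4 with recovered reads, 16 at 400, 6 with equal totals, 4 with equal totals without the 50 loci, and 2 at 200 kb. One locus was at a peak with at most 10 wild-type counts, against 0 under the other alternatives. The share of flanking loci higher in MIM396, 30.1%, ran lower without an FPKM filter (15.1%), as loci without reads are then counted, and lay between 26.0 and 34.5% under the other alternatives. With equal totals it was 26.5%, and with equal totals without the 50 loci 26.4%, around the loci chosen under each scaling. Both values lie under the shares of all loci given next for those scalings. Flanking loci are therefore not shown to exceed all loci under them. The share of all loci higher, 23.1%, was 25.6% with a pseudocount of 0.1 FPKM, 8.65% without a filter, 21.6% with a mean of at least 5 FPKM, 37.4% with equal totals and 31.3% with equal totals without the 50 loci. These scalings moved the median log2 ratio of all loci by 0.57 and 0.36; no family list had a lower locus under either, and all 12 GRF loci were higher with equal totals. With a limit of 5 FPKM in place of 1, marker loci detected in the library labelled wild type were 2 for panicle, 2 for MADS and 0 for anther, and in MIM396 7 for MADS, 1 for leaf and 0 for endosperm. Depth limits each ratio, which rests on at most 2 wild-type reads. No paired analysis was possible because each group has 1 library.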
